A study of Homo sapiens with 15 samples.

Results

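U87MG cells labelled with ID1 were compared with U87MG cells labelled with ID3. U87MG is an established human glioblastoma line, and both groups received lentivirus for 24 h under the labels "ID1 overexpression" and "ID3 overexpression". The comparison rests on 6 of the 15 libraries of the series, 3 per group. The other 9 libraries carry the labels control (GFP virus), ID2 and ID4, with 3 libraries each. All cells were of the same line and grown in DMEM with serum. The vector and the promoter driving each ID gene are not given in the sources used here, and the labels do not say whether the 3 libraries of a group came from separate cultures. The edgeR p-values therefore measure the spread between libraries of the same label, pooled over all 15 libraries. This spread may be technical.

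ID proteins are helix-loop-helix proteins without a DNA-binding region. They bind E proteins, which are basic helix-loop-helix transcription factors, and keep them from E-box sequences in DNA. The family is known for holding cells in an undifferentiated, dividing state, and in glioblastoma it is studied for stem-like growth and migration. The 4 members share the helix-loop-helix region but differ outside it, so a direct comparison of a pair of them asks which transcripts part cells given different members.

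Libraries were made with QuantSeq, which counts polyadenylated transcripts from their 3′ ends. Raw counts per gene were analysed. CPM, the scale used for levels, sets every library to the same total (counts per 1e6) after edgeR's TMM scaling. Totals were 13379741 to 15148979 counts in the ID1 libraries and 13369680 to 14428920 in the ID3 libraries. In them 3 counts, used as the floor, amounted to 0.197 to 0.223 CPM, which covers counting error only. Of 25737 listed gene entries, 12858 had a mean of 10 or more counts over the 6 libraries and were tested. The lowest mean inside this limit was 10.0 counts and the highest outside it was 9.83. The cells had the defining transcripts of the line, with VIM at 3680 to 3980 CPM and CD44 at 533 to 571 CPM over the 6 libraries, while CDKN2A and CDKN2B, which are deleted in it, had 0 counts. GFAP, the astrocyte filament, had at most 3 counts per library. The 14 markers of other cell types summed to 19.3 to 22.1 CPM in ID1 and 20.1 to 30.7 CPM in ID3. Most of this was SNAP25 (13.1 to 22.6 CPM over the 6 libraries) and CSF1R (3.86 to 6.01 CPM). The other 12 markers had at most 14 counts in any ID1 library and 18 in any ID3 library, among them PTPRC, the leukocyte marker, with at most 2 in ID1 and 8 in ID3, and VWF and CD3E with at most 1. The part of other cells in the results was not tested. In bulk RNA, fewer cells expressing a gene and less of its RNA per cell cannot be told apart.

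The mRNAs of the ID genes themselves were lower in the libraries labelled ID1. Adjusted p-values, written as edgeR adjusted p, come from quasi-likelihood F tests in edgeR and the Benjamini-Hochberg method. ID1 (chromosome 20, 30193086 to 30194318 on GRCh37) stood at 245, 247 and 250 CPM in the libraries labelled ID1 and at 314, 339 and 322 CPM in those labelled ID3. The label and the level of its own gene thus pointed in opposite directions, and the log2 fold change of ID1 over ID3 was -0.39 (SE 0.06, edgeR adjusted p = 2.85e-04). ID3 (chromosome 1, 23884417 to 23885992) stood at 175, 187 and 184 CPM with the ID1 label and at 308, 322 and 298 CPM with the ID3 label, a log2 fold change of -0.77 (SE 0.07, edgeR adjusted p = 9.14e-08). ID2 followed the same order, with 36.6, 31.4 and 34.1 CPM against 44.6, 48.6 and 45.2 CPM and a log2 fold change of -0.44 (SE 0.07, edgeR adjusted p = 2.37e-04). For these 3 genes no library of one group overlapped the other, and the two-sided exact permutation test over 3 against 3 libraries gave p = 0.10, the smallest it allows. ID4 was below the limit for testing, at 1 to 6 counts with the ID1 label and 3 to 10 with the ID3 label (exact permutation p = 0.60), whereas the libraries labelled ID4 held 212 to 236 CPM of it. GFP libraries held 339 to 355 CPM of ID1, 217 to 228 CPM of ID3 and 84.1 to 88.0 CPM of ID2, the last above both groups. The libraries labelled ID2 held 271, 322 and 281 CPM of ID3. The higher level of ID3 was therefore not particular to the ID3 label. A transcript from the vector is counted only if it carries the 3′ end assigned to the gene, so these counts do not test whether ID1 protein was raised. The groups are named by their labels here.

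**Figure D1:**
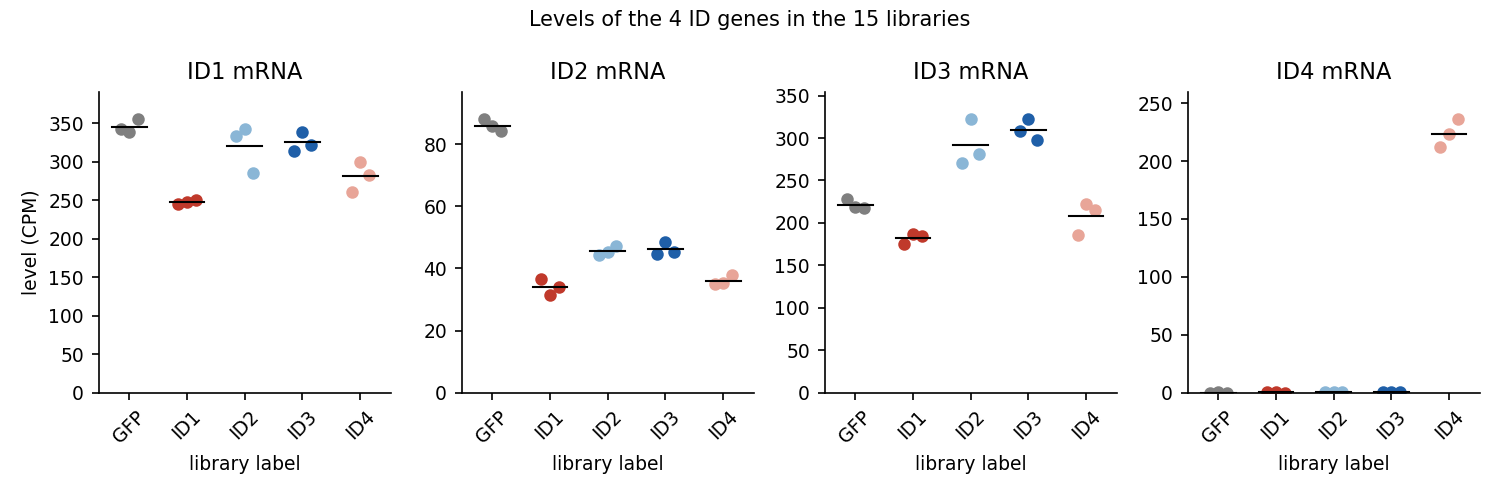
Levels of ID1, ID2, ID3 and ID4 mRNA in CPM (y axis, linear from 0) in each of the 15 libraries, by library label (x axis). Points are libraries and lines are means of 3. The libraries labelled ID1 hold the lowest mean of ID1 mRNA (248 CPM). ID4 mRNA stands at 212 to 236 CPM with the ID4 label and at most 0.743 CPM with the others.

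Between ID1 and ID3, 1216 of 12858 genes (9.46%) passed an edgeR adjusted p of 0.05. Of these, 594 (4.62%) were higher in ID1 and 622 (4.84%) were higher in ID3. Most differences were small, with a median log2 fold change of 0.32 among the genes higher in ID1 and -0.35 among those higher in ID3. Differences under 1.5-fold made up 82.0% of the former and 82.6% of the latter. The ID1 and ID3 libraries did not overlap in 589 of the 594 and 619 of the 622 genes, and over all tested genes they did not overlap in 30.6%. More than 2-fold differences were found in 86 genes (0.669%), 46 higher in ID1 and 40 higher in ID3, and 55 of these had a mean under 50 counts. In 201 tested genes the mean of 1 group was under 10 counts, so they passed the limit only through the other. Of these, 37 were called, all over 2-fold, and those named below are given by their counts, without a p-value. The share of genes called rose with abundance, from 3.7% among the 3215 tested genes at or under 6.12 CPM to 17.1% among the 3215 at or over 60.5 CPM. On no chromosome did the median log2 fold change pass 0.08 in size, but the directions were uneven on some. On chromosome 10, 42 of 494 tested genes were higher in ID3 and 8 in ID1, 40.3% had a positive log2 fold change and the median was -0.05. HTRA1, P4HA1, PFKFB3, COL13A1, ADAM12 and the 3 AKR1C genes described below lie on it. On chromosome X, 33 of 409 were higher in ID3 and 13 in ID1, and on chromosome 9, 14 of 503 were higher in ID3 and 34 in ID1.

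**Figure D2:**
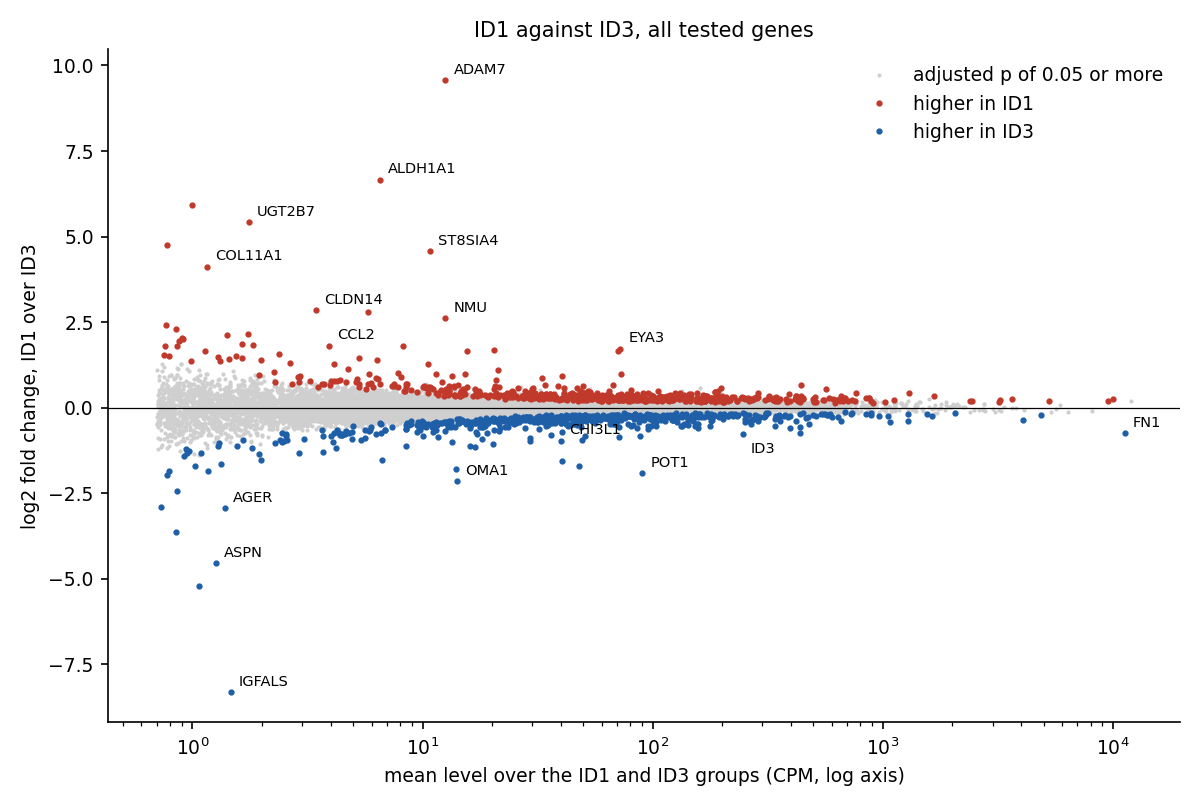
Log2 fold change of ID1 over ID3 (y axis) against the mean level of the gene over the 6 libraries in CPM (x axis, log scale) for the 12858 tested genes, each a point. Red points (594) are higher in ID1 and blue points (622) higher in ID3 at an adjusted p under 0.05. Changes of more than 4-fold sit mostly at low levels.

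Genes given below with an adjusted p kept their direction and an adjusted p under 0.05 in all the alternatives that tested them and with each of the 6 libraries left out, except where a value without a library is stated. Neighbouring genes given for their position were not followed through the alternatives.

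The genes with the largest differences were close to absent in one of the groups. ALDH1A1, which turns retinaldehyde into retinoic acid and is used as a marker of stem-like tumour cells, had 194, 183 and 168 counts in the ID1 libraries and 2, 1 and 2 in the ID3 libraries. UGT2B7, a glucuronosyltransferase of the liver, had 40, 51 and 53 counts against 0, 0 and 3. In the other direction, IGFALS, which carries insulin-like growth factors in blood plasma, had 57, 34 and 34 counts in the ID3 libraries and 0 in each ID1 library. ASPN (asporin), a small proteoglycan of the extracellular matrix, had 32, 25 and 45 counts against 3, 0 and 1. The start regions of these genes are shown because E proteins, the partners of ID proteins, bind E-boxes. The windows come from RefSeq on the GRCh38.p14 build, run from 250 bases before to 50 after the most upstream listed start, and carry every CANNTG (the E-box, which reads the same pattern on both strands) in capitals. They are chr9:72953004-72953303 (minus strand), chr4:69096224-69096523 (plus strand), chr16:1794859-1795158 (minus strand) and chr9:92482457-92482756 (minus strand), in the order given.
ALDH1A1: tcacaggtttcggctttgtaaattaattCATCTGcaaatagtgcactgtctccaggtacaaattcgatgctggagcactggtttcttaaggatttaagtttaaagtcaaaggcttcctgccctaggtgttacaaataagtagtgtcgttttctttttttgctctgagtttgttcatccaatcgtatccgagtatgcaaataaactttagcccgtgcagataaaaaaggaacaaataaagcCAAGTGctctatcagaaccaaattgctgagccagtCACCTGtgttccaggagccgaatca
UGT2B7: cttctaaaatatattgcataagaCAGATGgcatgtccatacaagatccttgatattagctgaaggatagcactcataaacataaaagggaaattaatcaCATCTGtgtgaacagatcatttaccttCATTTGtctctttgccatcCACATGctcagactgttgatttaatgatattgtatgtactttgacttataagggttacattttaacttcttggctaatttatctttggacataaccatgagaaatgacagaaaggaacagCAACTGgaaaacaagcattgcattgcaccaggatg
IGFALS: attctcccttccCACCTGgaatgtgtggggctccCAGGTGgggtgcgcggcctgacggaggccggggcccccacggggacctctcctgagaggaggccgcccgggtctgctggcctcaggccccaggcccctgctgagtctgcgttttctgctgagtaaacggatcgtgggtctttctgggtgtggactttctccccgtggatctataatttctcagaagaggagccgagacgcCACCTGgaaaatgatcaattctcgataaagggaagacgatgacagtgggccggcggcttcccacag
ASPN: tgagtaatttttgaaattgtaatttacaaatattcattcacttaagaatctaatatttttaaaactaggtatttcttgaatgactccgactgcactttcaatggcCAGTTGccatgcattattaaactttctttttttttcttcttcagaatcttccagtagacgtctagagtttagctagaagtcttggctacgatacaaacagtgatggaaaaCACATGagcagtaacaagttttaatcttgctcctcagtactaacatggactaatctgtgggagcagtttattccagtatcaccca

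The windows hold 3, 5, 3 and 2 such matches. A match is a description of the letters and not a binding site, and of the 9894 windows matched to tested genes, 5933 hold at least 1. Since fewer than 80% of the tested genes had a window, a comparison of motif shares between called and other genes is void and is not given.

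Among the 12 genes with the largest rise in ID1, 9 were higher in the ID1 libraries than in each of the other 12. The genes were chosen as high in ID1, so this count is a description. ADAM7, a member of the ADAM family found in the epididymis, had 309, 374 and 372 counts in ID1 and 0, 0 and 1 in ID3, a ratio of 1060 with a 95% counting interval of 189 to 41800. It was not particular to ID1, since the ID4 libraries held 379, 320 and 388 counts of it while GFP held 0. ALDH1A1 (chromosome 9, 75515587 to 75695358) stood at 12.7, 13.6 and 12.4 CPM in ID1 and at 0.135, 0.071 and 0.149 CPM in ID3, a ratio of 109 with a counting interval of 46.5 to 338. The other 9 libraries held at most 0.91 CPM. ST8SIA4 (chromosome 5, 100142637 to 100238986), which adds polysialic acid to cell surface proteins such as NCAM, stood at 20.2, 24.3 and 17.1 CPM against 0.81, 0.497 and 1.26 CPM, with a log2 fold change of 4.58 (SE 0.31, edgeR adjusted p = 1.06e-09). The other libraries ranged from 0.683 to 2.43 CPM. NMU (chromosome 4, 56461396 to 56502865), the neuropeptide neuromedin U, stood at 21.4, 19.8 and 23.7 CPM against 3.64, 3.76 and 3.12 CPM, a log2 fold change of 2.62 (SE 0.15, edgeR adjusted p = 9.93e-11).

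Other genes of this set had lower counts. CLDN14, a claudin of tight junctions, had 96, 80 and 79 counts in ID1 and 13, 6 and 16 in ID3 (log2 fold change 2.85, SE 0.29). LINC00520, a long noncoding RNA, had 167, 131 and 130 counts against 20, 20 and 22 (log2 fold change 2.78, SE 0.18), with 70 to 83 in the ID4 libraries. COL11A1, a fibrillar collagen chain, had 34, 24 and 35 counts against 4, 1 and 0 and so was close to absent in ID3, while GFP held 17 to 27. CDHR5, a cadherin of microvilli, had 47, 22 and 16 counts against 0, 0 and 1, a ratio of 85.2 with a 95% counting interval of 14.9 to 3400. The ratio was 48.1 (interval 16.1 to 236) for UGT2B7. ARG1, the arginase of the urea cycle, had 24, 13 and 27 counts against 2, 0 and 0, a ratio of 32.1 (interval 8.52 to 270). It overlaps MED23, which was lower in ID1 by 0.46 on the log2 scale. LOC339862, whose position was not matched, had 21, 15 and 19 counts against 6, 3 and 1 (log2 fold change 2.42, SE 0.52).

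The 12 genes with the largest rise in ID3 included 1 gene at 0 in every ID1 library. IGFALS (chromosome 16, 1840414 to 1844972) stood at 3.85, 2.41 and 2.52 CPM in ID3, at least 13.7-fold above a floor of 3 counts per ID1 library, and the other 9 libraries held at most 0.09 CPM. ASPN (chromosome 9, 95218487 to 95244788) stood at 2.16, 1.78 and 3.34 CPM in ID3 and at 0.197, 0 and 0.0736 CPM in ID1, a ratio of 25.5 with a 95% counting interval of 9.64 to 95.2. LOC100289580 had 34, 41 and 14 counts against 0, 2 and 0, a ratio of 44.4 with a 95% counting interval of 11.9 to 372. ACTR3C, an actin-related gene, had 26, 24 and 17 counts in ID3 and 2, 1 and 2 in ID1 (ratio 13.4, interval 5.45 to 42.5). AGER, the receptor for advanced glycation end products, had 28, 35 and 40 counts against 5, 4 and 4 (log2 fold change -2.95, SE 0.39). All 5 were higher in the ID3 libraries than in each of the other 12, a description only, since they were chosen as high in ID3.

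Of the remaining genes of this set, SMIM5, ABHD11-AS1, CABP4 and CALCRL had at most 35 counts in any ID1 or ID3 library. SMIM5 had 16, 23 and 22 counts in ID3 and 6, 5 and 0 in ID1, in a position overlapping RECQL5. CALCRL, the receptor of calcitonin gene-related peptide, had 28, 14 and 35 counts against 5, 6 and 10, while the ID4 libraries held 59 to 63. The log2 fold changes of these genes were -2.43 and -1.85. ABHD11-AS1, which overlaps ABHD11, had 17, 20 and 15 counts in ID3 and 2, 7 and 4 in ID1 (log2 fold change -1.96, SE 0.48). It was not called by edgeR without ID1 replicate 1 or ID3 replicate 2. CABP4, which overlaps TMEM134, had 15, 12 and 25 counts against 4, 6 and 4 (log2 fold change -1.86, SE 0.48). It was not called without ID1 replicate 1, ID1 replicate 3 or ID3 replicate 3. All these genes passed the limit on counts through ID3 alone, so the fitted values are a description.

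Among the named genes, 4 with higher counts showed a step of between 3-fold and 5-fold in 1 group over a common level in the other 4 groups. POT1 (chromosome 7, 124462440 to 124570037), which binds single-stranded telomere ends, stood at 136, 143 and 148 CPM in ID3 and at 36.8, 38.8 and 38.2 CPM in ID1. The other 9 libraries ranged from 34.3 to 46.5 CPM, so the ID3 libraries alone stood apart, with a log2 fold change of -1.91 (SE 0.07, edgeR adjusted p = 4.19e-14). OMA1 (chromosome 1, 58881056 to 59012474), a protease of the inner mitochondrial membrane, stood at 21.9, 20.9 and 26.1 CPM in ID3 against 5.38, 4.39 and 5.66 CPM in ID1 and 3.67 to 6.75 CPM elsewhere (log2 fold change -2.15, SE 0.18, edgeR adjusted p = 3.62e-08). EYA3 (chromosome 1, 28296855 to 28415148), a phosphatase and transcriptional co-activator, showed the reverse, at 113, 108 and 110 CPM in ID1 against 32, 33.8 and 34.7 CPM in ID3 and 31.1 to 37.9 CPM elsewhere (log2 fold change 1.72, SE 0.06, edgeR adjusted p = 3.05e-14). STK19 (chromosome 6, 31938868 to 31950598), a nuclear protein, stood at 111, 105 and 105 CPM in ID1 against 34, 33.7 and 35.2 CPM in ID3 and 31.3 to 41.3 CPM elsewhere (log2 fold change 1.64, SE 0.08, edgeR adjusted p = 3.89e-12).

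The nearest tested genes on either side mostly lacked the step. WASL, 1073383 bases from POT1, and POT1-AS1, which overlaps it, had log2 fold changes of 0.14 and 0.08. PRKAA2 and MYSM1, at 1700048 and 96638 bases from OMA1, had -0.28 and 0.14. Neighbours this far off do not show where a step ends. XKR8 and DNAJC8, at 2251 and 110819 bases from EYA3, had -0.26 (edgeR adjusted p = 0.0179) and 0.10. At STK19, DXO on one side had 0.19, but the complement gene C4A on the other had 23, 16 and 21 counts in ID1 against 3, 5 and 4 in ID3, a fitted log2 fold change of 2.29 (SE 0.41). C4B, the tested gene after it, had 2.0 (SE 0.48). C4A and C4B are near-identical copies, and STK19 overlaps C4A, so the assignment of their reads is uncertain. STK19, C4A and AGER were listed in 6 or 7 entries each, of which 1 entry held all counts of the gene in these 6 libraries.

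**Figure D3:**
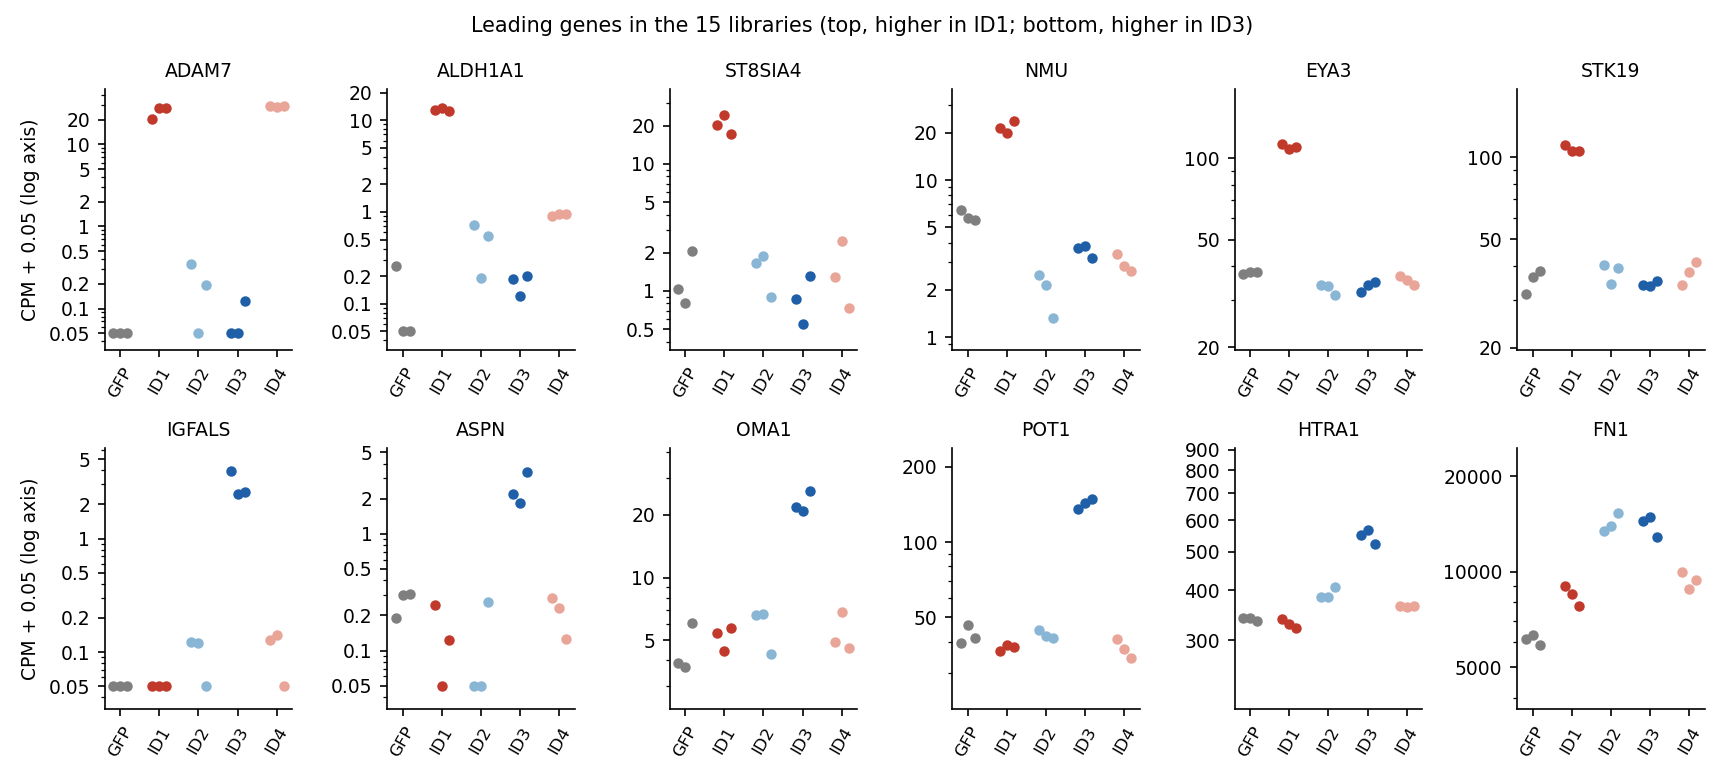
Levels of 12 genes in each of the 15 libraries, as CPM plus 0.05 (y axis, log scale, separate for each gene), by library label (x axis). The upper row holds genes higher in ID1 and the lower row genes higher in ID3. EYA3, STK19, OMA1 and POT1 are at one level in 4 groups and higher in 1, and ADAM7 is high in both ID1 and ID4.

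Of the 594 genes higher in ID1, 110 were higher in the ID1 libraries than in all other 12 libraries, and 104 were lower in the ID3 libraries than in all others. Of the 622 higher in ID3, 134 stood above all others in ID3 and 78 stood below all others in ID1. Over all tested genes, the ID1 libraries lay beyond the other 12 in 2.5% and the ID3 libraries in 3.61%. Among differences over 2-fold, the ID1 libraries stood above all others in 29 of 46 genes, and the ID3 libraries in 21 of 40. These same libraries chose the genes, so standing beyond the others is partly set by the choice. Of the 86 genes over 2-fold, 37 passed the limit on counts through 1 group only. The counts are a description.

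Most of the matrix genes called were higher in ID3. Of 37 tested collagens, laminins and other matrix genes, 12 were higher in ID3 and 2 in ID1 (37.8%, beside 9.46% of all genes). Their median log2 fold change was -0.23, beside 0.00 over all tested genes. FN1 (fibronectin, chromosome 2, 216225163 to 216300796), the main adhesive glycoprotein of the matrix and among the most abundant mRNAs here, stood at 14400, 14900 and 12900 CPM in ID3 and at 9020, 8490 and 7770 CPM in ID1. All ID3 values lay above all ID1 values, with a log2 fold change of -0.74 (SE 0.06, edgeR adjusted p = 6.04e-08). COL5A2 and COL5A1, chains of the fibril-forming collagen V, had 190 ± 18.2 and 139 ± 2.17 CPM in ID3 and 126 ± 6.29 and 107 ± 6.75 CPM in ID1 (SD, n = 3), with log2 fold changes of -0.59 and -0.37 (edgeR adjusted p = 3.06e-05 and 2.28e-04). COL13A1, a transmembrane collagen, had a log2 fold change of -0.47. The 2 members higher in ID1 were COL11A1, which passed the limit on counts through ID1 alone, and POSTN (periostin), the latter at 2.10, 2.82 and 2.28 CPM against 0.742, 0.852 and 1.04 CPM (log2 fold change 1.44, SE 0.28, edgeR adjusted p = 0.00182). With a limit of 50 counts neither of these was tested.

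SMOC1 (chromosome 14, 70320848 to 70499083), a matrix protein of basement membranes that modulates BMP signals, stood at 400, 412 and 398 CPM in ID3 and at 278, 277 and 277 CPM in ID1 (log2 fold change -0.54, SE 0.07, edgeR adjusted p = 1.21e-05). P4HA2 (chromosome 5, 131525840 to 131631008), which hydroxylates proline in collagen, stood at 509, 559 and 505 CPM against 370, 345 and 335 CPM (log2 fold change -0.58, SE 0.06, edgeR adjusted p = 3.19e-06). Its antisense gene P4HA2-AS1 overlaps it and had nearly the same counts (-0.59), and since strand-specific counting is not stated, the reads of the pair cannot be told apart. Of the metalloproteinases and their inhibitors, 4 of 22 were higher in ID3 and 1 in ID1, with 2 higher in ID3 without ID1 replicate 2 or ID3 replicate 2, and 0 higher in ID1 without 1 of the ID1 replicates or without ID3 replicate 1. The share called was 22.7%, beside 9.46% of all genes, and the median was -0.03. The proteoglycan-cleaving ADAMTS5 had a log2 fold change of -0.34 and ADAM12 of -0.26 (edgeR adjusted p = 0.00211 and 0.00501).

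The IGF axis, which includes the binding proteins that hold insulin-like growth factors, had 3 of 12 tested members higher in ID3 and 0 in ID1 by edgeR, against 4 and 1 at an unadjusted p under 0.05. The share called was 25%, beside 9.46% of all genes, and the median log2 fold change was -0.05. HTRA1 (chromosome 10, 124218067 to 124274423), a secreted protease that cuts IGF binding proteins and matrix, stood at 551, 568 and 524 CPM in ID3 and at 339, 329 and 322 CPM in ID1 (log2 fold change -0.73, SE 0.05, edgeR adjusted p = 3.29e-10). Its log2 fold change was -0.04 for ID1 over GFP and 0.69 for ID3 over GFP. IGFBP4 stood at 92.5, 91.0 and 91.9 CPM against 52.2, 52.0 and 47.1 CPM (log2 fold change -0.86, SE 0.06, edgeR adjusted p = 7.03e-10). IGFBP6 had 476 ± 36.4 CPM against 366 ± 12.8 CPM (SD, n = 3) and a log2 fold change of -0.38. IGFALS, described above, was not a member of this list.

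Glycolysis enzymes and hypoxia targets were another large list whose called members were mostly higher in ID3. Of 35 tested members, 10 were higher in ID3 and 1 in ID1 (31.4%, beside 9.46% of all genes), with a median of -0.14. Without ID1 replicate 3 or without ID3 replicate 2, 6 were higher in ID3. P4HA1, a form related to P4HA2, had 204 ± 7.56 CPM in ID3 and 158 ± 3.21 CPM in ID1 (SD, n = 3), with a log2 fold change of -0.36 (edgeR adjusted p = 9.75e-05). ANGPTL4, a secreted inhibitor of lipoprotein lipase, stood at 50.8, 52.3 and 47.9 CPM against 32.3, 32.6 and 27.7 CPM (log2 fold change -0.71, SE 0.09, edgeR adjusted p = 1.89e-05). PFKFB3, which raises the activator of phosphofructokinase, had a log2 fold change of -0.29. The member higher in ID1 was PKM, the pyruvate kinase of the last step of glycolysis, at 0.23 (edgeR adjusted p = 0.00455).

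NRF2 antioxidant genes had 6 of 27 tested members higher in ID3 and 1 in ID1 (25.9%, beside 9.46% of all genes). The number higher in ID1 was 0 without ID1 replicate 2, ID1 replicate 3, ID3 replicate 1 or ID3 replicate 2. The median was -0.1, with 10 members positive and 17 negative. The aldo-keto reductases, which reduce steroids and aldehydes, carried the largest differences. AKR1C2 stood at 64.1, 63.6 and 66.8 CPM in ID3 and at 33, 33.7 and 34.1 CPM in ID1, with all other libraries between them at 44.6 to 51.5 CPM. AKR1C1 stood at 110, 112 and 114 CPM against 59.5, 68.7 and 62.7 CPM, and AKR1C3 at 39.1, 41.0 and 36.4 CPM against 20.1, 19.4 and 19.9 CPM. The log2 fold changes were -0.95, -0.82 and -0.97 (edgeR adjusted p = 2.72e-09, 1.05e-08 and 6.68e-08). These genes are close paralogs, and how reads shared between them were counted is not given in the sources used here. They are among the 6 members higher in ID3 and may not count as separate members. FTH1, the ferritin heavy chain that stores iron, had a log2 fold change of -0.22.

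Lysosome and autophagy genes had 6 of 30 tested members higher in ID3 and 0 in ID1, with a median of -0.13. These were 20% of the list, beside 9.46% of all genes. At an unadjusted p under 0.05 the edgeR counts were 11 and 2, and 3 were called without ID1 replicate 1 or ID3 replicate 2. CTSD, cathepsin D, had a log2 fold change of -0.24 (edgeR adjusted p = 0.00944) and lost its call without ID3 replicate 2 (adjusted p = 0.0728). Of 33 genes of BMP, TGF-beta and SMAD signalling, the pathway that turns on ID genes in many cells, 5 were higher in ID3 and 2 in ID1. Its inhibitor SMAD6 stood at 25.2, 25.8 and 27.5 CPM in ID3 against 18.4, 16.4 and 17.4 CPM in ID1 (log2 fold change -0.59, SE 0.08, edgeR adjusted p = 6.75e-05), and TGFBI, a secreted TGF-beta target, had -0.35. SMAD6 and TGFBI were the only 2 higher in ID3 that were called without ID1 replicate 3 or ID3 replicate 1, and 3 in all were called without ID1 replicate 2 or ID3 replicate 2. Those higher in ID1 numbered 0 without ID1 replicate 1 or ID3 replicate 1 and 1 without ID1 replicate 2, ID3 replicate 2 or ID3 replicate 3. Of these 33 genes 21.2% were called, and their median was -0.03.

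The genes called in cholesterol synthesis were higher in ID1. Of 30 tested genes of cholesterol and fatty acid synthesis, 7 were higher in ID1 and 0 in ID3. Called members made up 23.3%, beside 9.46% of all genes, 28 had a positive log2 fold change and the median was 0.15. At an unadjusted p under 0.05 the edgeR counts were 14 and 0, and DESeq2 called 8 and 0. SQLE, the squalene epoxidase, stood at 48.6, 54.5 and 50.8 CPM in ID1 against 37.9, 37.1 and 41.1 CPM in ID3 (log2 fold change 0.41, SE 0.07, edgeR adjusted p = 3.44e-04). HMGCS1, an early enzyme of the pathway, had 133 ± 2.71 against 104 ± 7.75 CPM, and INSIG1, which restrains the pathway when sterols are plentiful, had 172 ± 4.30 against 141 ± 6.84 CPM (SD, n = 3). Their log2 fold changes were 0.36 and 0.28 (edgeR adjusted p = 4.24e-04 and 0.00155).

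The cell division genes that passed the test were also higher in ID1, and most members did not pass. Of 34 tested mitosis genes, 7 were higher in ID1 and 0 in ID3 (20.6%, beside 9.46% of all genes). A positive log2 fold change was found in 30, and the median was 0.14. At an unadjusted p under 0.05 the edgeR counts were 14 and 1. The number called was 3 without ID1 replicate 1, 4 without ID1 replicate 2 and 3 without ID3 replicate 1. PLK1, a kinase of mitotic entry, stood at 78.8, 86.1 and 83.5 CPM in ID1 and at 45.4, 48.4 and 62.2 CPM in ID3, where replicate 3 lay nearest to ID1 (log2 fold change 0.67, SE 0.14, edgeR adjusted p = 0.00361). CENPE, a kinetochore motor, and FOXM1, a transcription factor of mitotic genes, had log2 fold changes of 0.41 and 0.30 (edgeR adjusted p = 0.00191 and 0.00565). Of 36 DNA replication genes, a share of 11.1% near the 9.46% of all genes was called, and 4 were higher in ID1 and 0 in ID3 by edgeR (9 and 0 at an unadjusted p under 0.05, and 6 and 0 by DESeq2), falling to 2 without ID1 replicate 2, ID1 replicate 3 or ID3 replicate 1. RFC5 and RFC4, subunits of the clamp loader, had 0.32 and 0.39. CCND1, the D cyclin of G1, had 0.25 (edgeR adjusted p = 0.00317), while CDKN1B, the inhibitor p27, had -0.35 (edgeR adjusted p = 0.0013) and TP53INP1, a p53 target, had -0.63 (edgeR adjusted p = 2.72e-05). The list of CDK inhibitors, cyclins and p53 targets had 1 of 20 members higher in ID1 and 3 in ID3 (20% called). Over GFP, PLK1 had log2 fold changes of -0.05 for ID1 and -0.72 for ID3, and CENPE of -0.01 and -0.41. RFC5 had -0.05 and -0.37, and RFC4 had -0.2 and -0.6. For these genes ID3 lay further from GFP than ID1 did. FOXM1, at 0.38 and 0.08, and CCND1, at 0.18 and -0.08, went the other way.

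Heat shock proteins had the highest share of members called on the ID1 side, with 8 of 19 higher in ID1 and 0 in ID3. This was 42.1%, beside 9.46% of all genes, and the median was 0.17. At an unadjusted p under 0.05 the edgeR counts were 10 and 1, and without ID3 replicate 1 the number called was 4. HSPD1 and HSPA9, chaperones of the mitochondrial matrix, had 451 ± 6.80 against 377 ± 4 CPM and 120 ± 6.62 against 95.5 ± 2.07 CPM (SD, n = 3), with log2 fold changes of 0.26 and 0.33 (edgeR adjusted p = 9.75e-04 and 0.00407). DNAJA1, a co-chaperone of HSP70, had 0.31 and HSPB1, a small heat shock protein, had 0.29.

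Targets of YAP and TAZ, factors that respond to cell tension, had 4 of 18 members higher in ID1 and 0 in ID3 by edgeR, against 7 and 1 at an unadjusted p under 0.05. The share called was 22.2%, beside 9.46% of all genes. The list as a whole was not shifted, with a median log2 fold change of 0.03, 11 members positive and 7 negative. Without ID3 replicate 3, 1 was higher in ID3. CYR61 (chromosome 1, 86046444 to 86050272), a secreted matrix-associated protein, stood at 503, 555 and 567 CPM in ID1 and at 312, 341 and 378 CPM in ID3 (log2 fold change 0.66, SE 0.10, edgeR adjusted p = 2.52e-04). F3, tissue factor, stood at 41.5, 43.0 and 40.6 CPM against 26.1, 26.6 and 26.6 CPM (log2 fold change 0.66, SE 0.15, edgeR adjusted p = 0.00596). AXL, a receptor tyrosine kinase, had 0.27. Among 26 actin and SRF genes, 4 were higher in ID1 and 1 in ID3, the latter 2 without ID3 replicate 1 or ID3 replicate 3. The share called was 19.2% and the median 0.03. SRF, the factor that drives actin genes, had 0.43 (edgeR adjusted p = 0.00295) and ACTB, beta-actin, had 0.19 (edgeR adjusted p = 0.00477), while LMOD1, an actin nucleator, had -0.76 (edgeR adjusted p = 0.00524).

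Of 12 tested plasminogen activators and serpins, 3 were higher in ID1 and 1 in ID3, the latter SERPINE2, a secreted protease inhibitor, with a log2 fold change of -0.26 (edgeR adjusted p = 0.00366). The share called was 33.3%, beside 9.46% of all genes, and the median of the list was -0.03. Of 21 integrins and cadherins, 4 were higher in ID1 and 2 in ID3, the latter 1 without ID1 replicate 2. The share called was 28.6% and the median 0.0. ITGB5 and ITGB3, beta chains that pair with the alpha V chain, had 0.39 and 0.59 (edgeR adjusted p = 6.49e-05 and 0.00408), ITGA6, a laminin receptor chain, had 0.59 and CDH13, a cadherin without a transmembrane part, had -0.44.

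Of 28 genes of IL1, chemokines and NF-kB feedback, 5 were higher in ID1 and 1 in ID3 (21.4%, beside 9.46% of all genes). CCL2, the monocyte chemokine, stood at 4.92, 7.51 and 5.81 CPM in ID1 and at 1.21, 2.49 and 1.49 CPM in ID3 (log2 fold change 1.81, SE 0.24, edgeR adjusted p = 2.82e-05). IL1RN, the receptor antagonist of IL1, stood at 8.93, 6.69 and 7.72 CPM against 2.56, 2.98 and 2.97 CPM, and IL36B, an IL1-family cytokine, at 5.97, 5.35 and 6.11 CPM against 2.36, 2.27 and 2.60 CPM. Their log2 fold changes were 1.46 and 1.27 (edgeR adjusted p = 2.04e-05 and 2.28e-04). PTGES, the prostaglandin E synthase, had 0.35 at a mean of 471 ± 8.98 CPM in ID1 (SD, n = 3). The number higher in ID3 was 0 without ID1 replicate 1, ID1 replicate 2 or ID3 replicate 2, and 0 by DESeq2.

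Aldehyde dehydrogenases had 3 of 13 tested members higher in ID1 and 1 in ID3 (30.8%, beside 9.46% of all genes), with a median of 0.03. Beside ALDH1A1, which passed the limit on counts through ID1 alone, the mitochondrial ALDH1B1 stood at 25, 24.8 and 27.7 CPM in ID1 against 15.9, 18 and 17 CPM in ID3 (log2 fold change 0.61, SE 0.09, edgeR adjusted p = 1.24e-04) and ALDH1A3, which also makes retinoic acid, had 0.26. ALDH3B1 had -0.53. Among receptor tyrosine kinases and ligands, 3 of 25 were higher in each group (24% called). FGF1, a fibroblast growth factor, had 0.62 (edgeR adjusted p = 2.40e-04) and PDGFRB, a receptor of platelet-derived growth factor, had -0.42 (edgeR adjusted p = 0.00351). The number higher in ID3 was 1 without ID1 replicate 2, ID1 replicate 3 or ID3 replicate 1. Of 20 glioma stemness and glial genes, 1 was higher in each group, ITGA6 in ID1 and CHI3L1 in ID3. This share of 10% was near the 9.46% of all genes. CHI3L1 (YKL-40), a secreted glycoprotein of the mesenchymal state of glioma, stood at 50.7, 48.9 and 59.2 CPM in ID3 against 28, 26.4 and 26.6 CPM in ID1 (log2 fold change -0.97, SE 0.08, edgeR adjusted p = 3.94e-08).

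In 4 signalling and transcription factor lists, the shares called were 15.4% of E proteins and partners, 4.76% of the LMO2, JAK and STAT3 list, 14.3% of Wnt genes and 20.7% of ERK feedback and AP-1 genes, beside 9.46% of all genes. Of 13 tested E proteins and other basic helix-loop-helix partners, 2 were higher in ID3 and 0 in ID1 by edgeR (3 and 0 at an unadjusted p under 0.05), and neither kept its call with every library left out, the list falling to 0 without ID1 replicate 3 or ID3 replicate 1 and to 1 without each of the others. Of 21 genes of LMO2, JAK and STAT3 signalling, 1 was higher in ID1 and 0 in ID3 by edgeR, against 3 and 1 at an unadjusted p under 0.05. Without ID1 replicate 2 or ID3 replicate 1 both counts were 0. Of 28 Wnt genes, 2 were higher in each group, with 1 higher in ID3 without ID1 replicate 1, ID1 replicate 3 or ID3 replicate 1. The named members were DKK1, a secreted Wnt inhibitor, at 0.79 (edgeR adjusted p = 0.00923) and LGR4, a receptor of R-spondins, at -0.35 (edgeR adjusted p = 0.00379). Of 26 semaphorins, ephrins, netrins and slits, which guide axons and migrating cells, 0 were called by edgeR and 0 by DESeq2, while 3 were higher in ID1 and 5 in ID3 at an unadjusted p under 0.05. Without ID3 replicate 3, 2 of them were higher in ID3, without ID1 replicate 1, 1 was higher in ID3, and without ID3 replicate 1, 1 was higher in ID1. ERK feedback and AP-1 genes had 3 of 29 members higher in each group. EGR1, an immediate early factor, stood at 22.5, 25.3 and 23.3 CPM in ID3 against 12.1, 18.1 and 12.7 CPM in ID1 (log2 fold change -0.73, SE 0.13, edgeR adjusted p = 0.00125), and the 3 higher in ID1 fell to 0 without ID1 replicate 2, ID1 replicate 3 or ID3 replicate 1 and to 1 without ID3 replicate 2.

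In metabolic and translation lists, the share called ran from 5.26% of serine, folate and related enzymes and 5.88% of ribosomal proteins to 20% of 15 amino acid transporters, beside 9.46% of all genes. The numbers higher in ID1 and in ID3 were 1 and 1 of 16 for ATF4 stress regulators, 2 and 1 of 15 for amino acid transporters, 2 and 0 of 19 for aminoacyl-tRNA synthetases and 1 and 0 of 19 for serine, glycine, folate, asparagine and proline enzymes. They were 2 and 0 of 34 for cytosolic ribosomal proteins and 2 and 2 of 36 for nuclear-encoded respiratory chain genes. ATF4 itself, the factor of the amino acid response, stood at 216, 215 and 214 CPM in ID1 against 168, 174 and 191 CPM in ID3 (log2 fold change 0.28, SE 0.05, edgeR adjusted p = 0.00232), LARS, the leucyl-tRNA synthetase, had 0.34 (edgeR adjusted p = 0.00256) and SLC1A3, a glutamate transporter, had -0.43 (edgeR adjusted p = 0.00164). Interferon-stimulated genes had 1 of 27 higher in ID1 and 3 in ID3 (1 in ID3 without ID1 replicate 2, and 0 in ID1 without ID1 replicate 3 or ID3 replicate 1), with IFIT2 at -1.36 (edgeR adjusted p = 0.00263). The unfolded protein response had 0 and 2 of 18, metallothioneins 0 and 1 of 9, and MHC class I and antigen processing 0 and 1 of 7. Shares called were 14.8% for interferon-stimulated genes, 11.1% for the unfolded protein response, 11.1% for metallothioneins and 14.3% for the MHC list. Only 7 of the 18 genes of the MHC list had a single entry, and the others were left out. Its called member was CALR, at -0.19. In the lists of this paragraph most members called lost the call with at least 1 library left out, and those named here did not. At an unadjusted p under 0.05 the lists with 0 called in a direction had 0 or 1 member in it.

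Over all 38 lists, 156 of 810 distinct tested genes (19.3%) were called, above the 9.46% of all tested genes. List genes were more abundant, with 358 of the 810 at or over 60.5 CPM, where 25.7% of list genes and 17.1% of all genes were called. At or under 6.12 CPM the shares were 10.2% and 3.7%. The lists were chosen with earlier results of these data known, so these shares are a description.

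**Figure D4:**
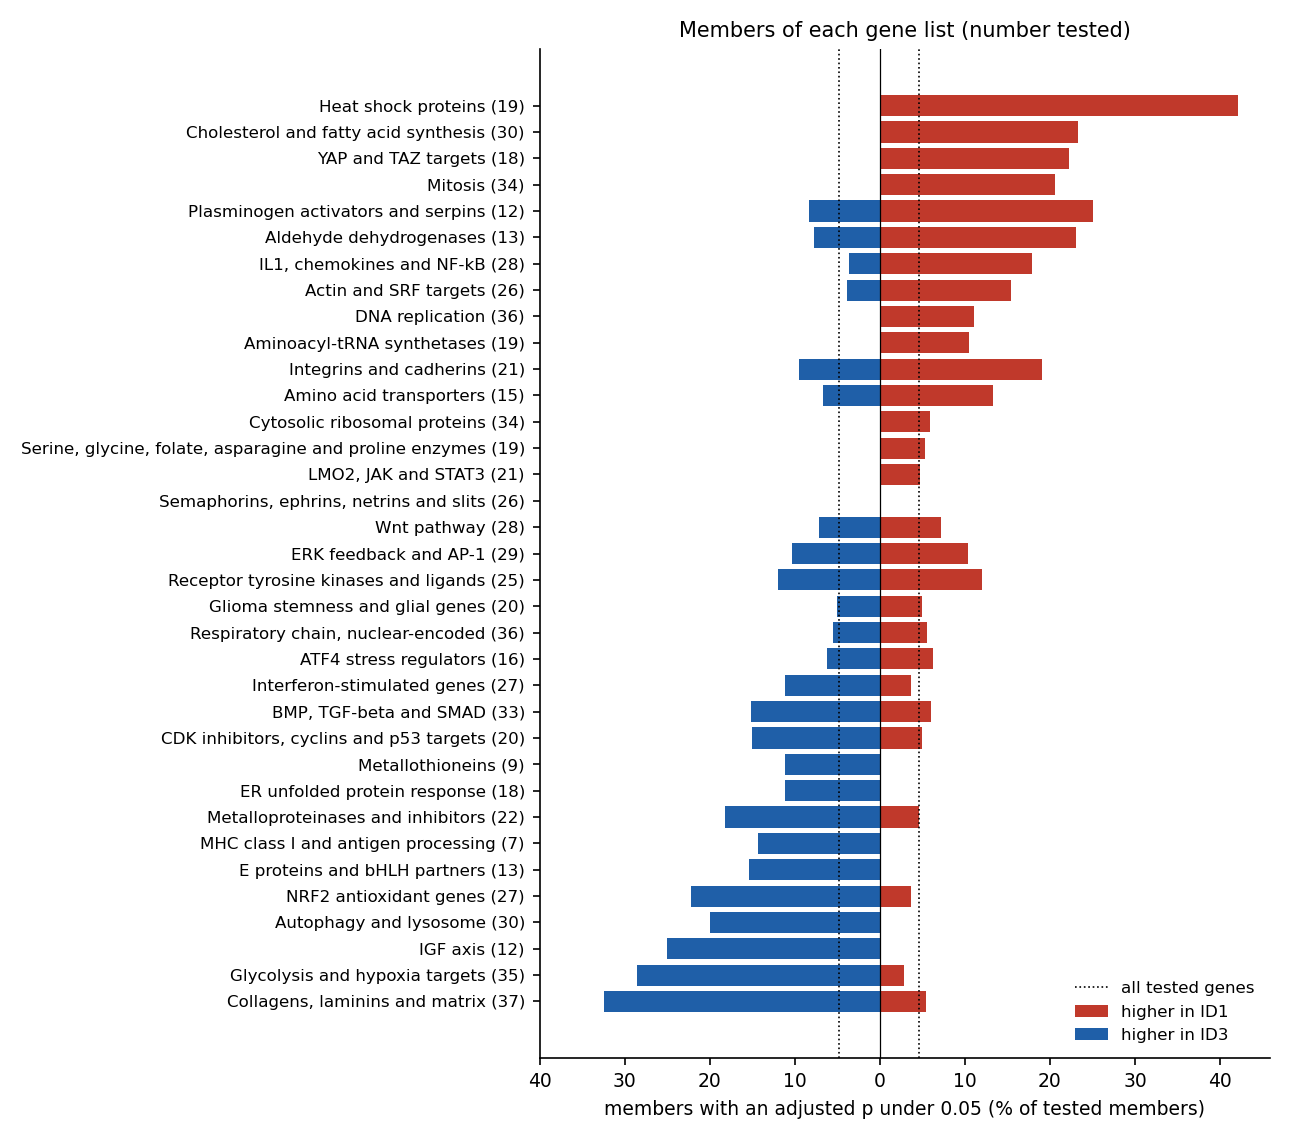
Share of tested members of each gene list with an adjusted p under 0.05 (x axis, percent), to the right for members higher in ID1 and to the left for members higher in ID3. Numbers of tested members stand beside the list names, the ID genes and marker lists are not drawn, and dotted lines mark all tested genes (4.62% and 4.84%). Heat shock proteins have the longest bar for ID1 and matrix genes the longest for ID3.

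Some abundant genes outside the lists also parted the groups. H2AFV (chromosome 7, 44866390 to 44887686), which encodes a form of the histone variant H2A.Z, stood at 678, 661 and 667 CPM in ID1 and at 468, 463 and 462 CPM in ID3, with the other 9 libraries between them at 470 to 565 CPM (log2 fold change 0.53, SE 0.05, edgeR adjusted p = 1.36e-07). PLEKHA4 (chromosome 19, 49340349 to 49371874), a phosphoinositide-binding adaptor, stood at 96.7, 101 and 93.6 CPM against 45.8, 46.3 and 55.9 CPM (log2 fold change 0.98, SE 0.10, edgeR adjusted p = 1.35e-06).

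Values against GFP are given side by side, since both contrasts share the GFP libraries. In the same edgeR fit, 2896 genes (22.5%) differed between ID1 and GFP and 3721 (28.9%) between ID3 and GFP. Among the genes called between ID1 and ID3, 7 higher in ID1 and 8 higher in ID3 were also called against GFP in both groups and in opposite directions. SMC6, a subunit of a DNA repair complex, had log2 fold changes of 0.46 for ID1 over GFP and -0.46 for ID3 over GFP, and TBC1D24, a vesicle traffic protein, had 0.70 and -0.40. PPA1, the cytosolic pyrophosphatase, had -0.35 and 0.47, LRRN4CL had -0.62 and 0.27, and CHI3L2, a chitinase-like protein, had -0.52 and 0.60. For FN1 both groups lay above GFP, at 0.46 and 1.20. POT1 had -0.16 and 1.75.

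The ID4 and ID2 libraries, which entered neither mean, were used to see whether the same genes part another pair of groups. Nothing in the labels sets ID4 beside ID1 or ID2 beside ID3. The shared directions below are therefore a description and not an independent test. Between ID4 and ID2, 2403 of 12858 genes (18.7%) passed the same threshold in that edgeR fit, 1183 (9.2%) higher in ID4 and 1220 (9.49%) higher in ID2. Of the 594 genes higher in ID1 than in ID3, 142 (23.9%) were higher in ID4 and 56 (9.43%) were higher in ID2. Of the 622 genes higher in ID3, 57 (9.16%) were higher in ID4 and 195 (31.4%) were higher in ID2. The median log2 fold change of ID4 over ID2 was 0.09 in the former and -0.12 in the latter, beside 0.00 over all tested genes. For differences over 2-fold the shares were 28.3% and 8.7% of 46 genes higher in ID1, and 12.5% and 7.5% of 40 genes higher in ID3.

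Gene lists differed in whether ID4 over ID2 had the direction of ID1 over ID3. Matrix genes had a median of -0.19 for ID4 over ID2, with 14 of 37 higher in ID2 and 5 in ID4, and FN1 had -0.59. Glycolysis and hypoxia targets had 13 of 35 higher in ID2 and 2 in ID4, and lysosome genes 14 of 30 and 0. Mitosis genes had 8 of 34 higher in ID4 and 0 in ID2. Cholesterol synthesis did not follow, with 1 of 30 higher in ID4 and 6 in ID2 and a median of -0.06, and heat shock proteins had 2 of 19 in each direction. Actin and SRF genes had 1 of 26 higher in ID4 and 15 in ID2. AKR1C1 and AKR1C2 had log2 fold changes of 0.03 and 0.01, and COL13A1, lower in ID1 than in ID3, had 1.69 for ID4 over ID2. In a principal component analysis of the 15 libraries, the order of the groups differed between axes. On the first axis (29.6% of the variance), ID3 lay at 7.1 to 8.29 and ID1 at 4.53 to 5.95, with ID2 at 17.5 to 20.5 and ID4 at 1.27 to 1.81. On the second (14.3%), ID1 lay at -16.2 to -11.5 and ID4 at -14.8 to -8.77, while ID2 lay at 11.2 to 25.2 and ID3 at -0.783 to 6.10. ID3 replicate 3 was the ID3 library nearest to ID1 on it. On the third (10.6%), ID3 lay at -21.2 to -16.4, apart from the other 4 groups, with ID1 at 0.284 to 4.14 and ID2 at 3.83 to 15.3.

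**Figure D5:**
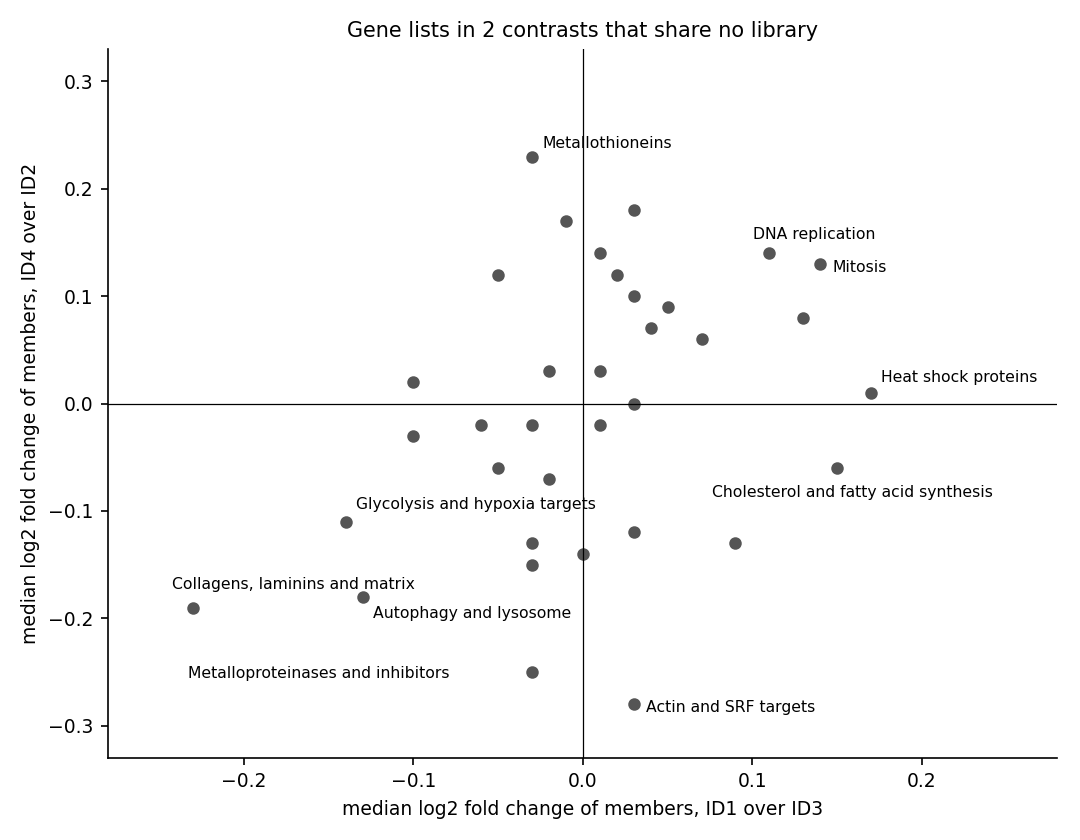
Median log2 fold change of the tested members of each gene list for ID1 over ID3 (x axis) and for ID4 over ID2 (y axis), a point per list. The contrasts share no library, although the spread was estimated over all 15. Matrix, glycolysis and lysosome lists lie below 0 on both axes and mitosis and DNA replication above 0 on both, while cholesterol synthesis lies at 0.15 and -0.06.

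The number of genes called between ID1 and ID3 depended on single libraries. Without ID1 replicate 2 it was 767, without ID1 replicate 3 it was 659, without ID3 replicate 1 it was 665 and without ID3 replicate 2 it was 733. Without ID3 replicate 3 it was 1203, but only 970 of these were among the 1216 called with all libraries. Batches of culture, transduction or sequencing are not named in the labels, so batch and group cannot be told apart.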

How the data were processed

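The data are QuantSeq 3′ mRNA libraries of U87MG cells, 3 for each of the labels GFP, ID1, ID2, ID3 and ID4. The authors deposited a table with raw counts per gene and log2 values that they had normalized between libraries, with no adjustment of the raw counts. The submitters' processing notes name Bowtie2, BWA and hg19 (GRCh37), and the counting tool, its use of strand and the annotation are not given in the sources used here. Groups follow the labels. Genes with a mean of 10 or more counts over the ID1 and ID3 libraries were tested with edgeR 4.0.16 in R 4.3.3 (TMM, quasi-likelihood test, 1 mean per group over all 15 libraries, Benjamini-Hochberg adjustment over 12858 genes, threshold 0.05). With 10 residual degrees of freedom, the 5 groups shared 1 estimate of the spread. The script was tested on simulated counts with known changes.

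The study's methods compare means of expression values, and a count test was used in its place because raw counts were deposited. Alternatives were relative log expression scaling, DESeq2 1.42.0, limma 3.58.1 with a trend on log2 CPM or on the deposited log2 values, no filter, a mean of 50 or more counts, the 6 libraries alone, a replicate block and each library left out. Tables were made with Python 3.11.15, pandas 2.3.3 and matplotlib 3.10.9. Intervals of count ratios are 95% intervals for the ratio of summed counts, and PCR reads without molecular identifiers are not independent, so intervals and floors cover counting error only.

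Named genes were the ID genes, the 12 largest called differences without overlap in each direction, the 6 most abundant called genes in each direction with a log2 fold change of at least 0.5 in size, up to 4 called members of each list in each direction, genes at 3 counts or fewer in every library of 1 group with a mean of 30 or more in the other, and up to 6 genes in each direction called against GFP in opposite directions. The members and lists were chosen with earlier results of these data known. List members whose symbol did not stand on exactly 1 entry were left out. A few genes that the rule names are not reported here. Positions came from GENCODE on GRCh37 by symbol for 21995 entries and by older symbol for 1388 of 25737 entries, with 2354 unmatched. Start-site windows came from RefSeq on GRCh38.p14 by symbol, and 9894 of 12858 tested genes had one.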

Additional observations from a re-analysis of the deposited data

Results flagged for a closer look

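The 12 results given here were marked because ID1 and ID3 both differed from GFP with an adjusted p under 0.05 (edgeR quasi-likelihood test, Benjamini-Hochberg) and did so in opposite directions, and because the ID1 against ID3 contrast tested that difference itself. Higher in ID1 were NMU, with a log2 fold change of ID1 over ID3 of 2.62, CCL2 with 1.81, TBC1D24 with 1.1, PLEKHA4 with 0.98, SMC6 with 0.92 and H2AFV with 0.53. Higher in ID3 were CHI3L2 with -1.12, AKR1C2 with -0.95, LRRN4CL with -0.88, AKR1C1 with -0.82, PPA1 with -0.82 and the ID3 gene itself with -0.77. Whether the ID3 mRNA counts include transcripts of the vector was not tested.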

How the results depend on the processing

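The count of 1216 genes called between ID1 and ID3 was 1214 with relative log expression scaling, 1231 with DESeq2, 1159 and 1153 with limma on log2 CPM and on the deposited log2 values, 1338 without the filter, 1221 with a mean of 50 or more counts and 1730 from the 6 libraries alone. With 1 library left out it ranged from 659, of which 640 were among the 1216, to 1203, of which 970 were. The share higher in ID1 ranged from 42.1% to 50.4% over all alternatives, beside 48.8%. Of the 86 genes over 2-fold, the limit of 50 counts left 31. Replicate numbers of ID1 and ID3 did not pair the libraries, since the deviations of same-numbered libraries correlated at 0.0268, -0.0219 and 0.0725, and with a replicate block 1081 genes were called, 1067 of them called without it. Over the 156 named genes and their 2163 alternative values, 1978 kept direction and call, 185 kept direction only and 0 reversed. Low counts limited the largest differences, since 55 of the 86 genes over 2-fold had a mean under 50 counts.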
